A study of Homo sapiens with 6 samples.

Results

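The genes described here encode proteins that work beside the TET dioxygenases: OGT, OGA, HCFC1, HCFC2, SIN3A, SIN3B, CXXC1, CXXC4 and CXXC5. Every probe set whose only gene in the platform annotation is one of these 9 was taken, which gave 30 of the array's 54675 probe sets, for 9 of 19775 annotated genes. RNA of Flp-In T-REx 293 cells, made from the embryonic kidney line HEK293 so that a transgene can be placed at a chosen genomic site, was measured on 6 one-colour Affymetrix arrays. In the TET siRNA group, siRNAs against TET1, TET2 and TET3 were given together to 3 clones, with 1 array per clone. In the non-targeting siRNA group, the same 3 clones received a pool of siRNAs without a target, again with 1 array per clone. RNA was taken 96 h after treatment in both groups, and the cells of both carried a stable inducible GFP transgene that stayed uninduced. The comparison, paired by clone, asks whether the transcripts of TET partners change after siRNA against the TET genes. TET protein was not measured on these arrays.

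TET proteins oxidise methylated cytosine in DNA and act together with other chromatin proteins. OGT, which places O-linked GlcNAc on nuclear and cytosolic proteins, binds TET proteins at CpG-rich promoters, and OGA is the enzyme that removes the sugar. HCFC1 is a chromatin adaptor that OGT both glycosylates and cleaves, and it links the SET1 histone H3K4 methyltransferase and the SIN3 histone deacetylase complexes to promoters. SIN3A and SIN3B are the scaffolds of that deacetylase complex. CXXC zinc fingers bind CpG dinucleotides, mostly unmethylated ones: CXXC1 is the CpG-reading subunit of the SET1 complex, CXXC4 is the former CXXC finger of an ancestral TET2 gene, and CXXC5 is its close relative.

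As these proteins meet at CpG-rich DNA, promoter windows of 250 bases are shown, with every CpG in capitals. They belong to the genes with the smallest p-values among the members, and each lies upstream of an annotated start. They come from RefSeq promoters on GRCh38.p14, where 8 of the 9 genes were matched. The HCFC2 window lies on the plus strand at chr12:104064281-104064530 and the CXXC5 window on the plus strand at chr5:139675193-139675442.
HCFC2: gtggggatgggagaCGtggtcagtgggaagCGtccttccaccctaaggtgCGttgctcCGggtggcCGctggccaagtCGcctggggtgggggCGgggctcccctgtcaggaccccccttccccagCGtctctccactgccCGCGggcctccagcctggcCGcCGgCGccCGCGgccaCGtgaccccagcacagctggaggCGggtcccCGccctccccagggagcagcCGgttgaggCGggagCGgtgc
CXXC5: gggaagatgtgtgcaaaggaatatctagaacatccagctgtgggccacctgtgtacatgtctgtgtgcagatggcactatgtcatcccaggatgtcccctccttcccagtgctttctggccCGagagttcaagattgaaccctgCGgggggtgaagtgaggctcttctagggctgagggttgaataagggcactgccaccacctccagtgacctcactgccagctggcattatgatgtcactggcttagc
The HCFC2 window holds 21 CpG dinucleotides and the CXXC5 window 2, against a median of 11 over 35116 promoters (quartiles 3 and 23). The same window had 25 CpG in OGT, 23 in CXXC1, 17 in SIN3A, 16 in OGA, 11 in CXXC4 and 3 in SIN3B. The 2 windows shown thus lie on either side of the median. Other start sites of these genes were not examined, so the counts describe the windows used and not every promoter of a gene. A 7-letter ETS core (CCGGAAG, both strands), which 8.5% of all promoters hold in this window, was in none of the 8, and neither was ACTACAA (both strands, in 2.5% of promoters), the start of the motif bound by the HCFC1 partners ZNF143 and THAP11.

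All 3 siRNA targets were lower at their brightest probe set. There, TET siRNA cells kept 17.9% of the TET1 signal of non-targeting siRNA cells, 42.9% of that of TET3 and 46.8% of that of TET2. All 3 passed with the clone as a block (limma adjusted p = 3.1e-06 for TET1, 0.0047 for TET2 and 0.0021 for TET3), whereas without it only TET1 did (0.0023 for TET1, 0.198 for TET2 and 0.0678 for TET3). The second TET1 probe set was at 22.1%. The dimmer TET2 probe sets were at 14.2% and 117%, and those of TET3 at 56.5% and 68.5%. None of these dimmer TET2 and TET3 probe sets passed in the fit without a brightness filter (limma adjusted p = 0.414 to 0.959). Summed over 7 HEK293 markers, of which LHX1 alone lay below the brightness filter, the signal was 29801 to 35081 in TET siRNA cells and 33929 to 38266 in non-targeting siRNA cells. Most of this sum was NEFL (17071 to 24539 over all arrays) and KRT18 (8338 to 9909), while NEFM (193 to 406) and PAX2 (204 to 340) were low. The blood markers PTPRC, CD3E and CD14 were all below the filter, with sums of 77.4 to 211 in TET siRNA cells and 115 to 138 in non-targeting siRNA cells. The endothelial sum was 210 to 268 in TET siRNA cells and 188 to 239 in non-targeting siRNA cells. The fibroblast sum, mostly COL1A1 (864 to 1289), was 1150 to 1317 in TET siRNA cells and 1259 to 1586 in non-targeting siRNA cells. The part of these cell types in the results was not tested. With the clone as a replicate block, 282 of 27306 tested probe sets passed a limma adjusted p under 0.05 (1.03%, with 0.385% higher and 0.648% lower). Without the block 4 did (0.0146%). The deposited signals had been scaled to a trimmed mean of 1000 on each array, so every difference is relative to the array as a whole, and in bulk RNA fewer cells and less RNA per cell cannot be told apart.

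None of the partner genes passed the threshold. Of their 30 probe sets, 24 were bright enough to test, and 0 passed in limma, with the replicate block or without it. At an unadjusted p under 0.05 there were 5 of the 24 with the block, where 14.4% of all tested probe sets had such a p, and 3 of the 24 without it, against 6.61% of all. The differences were small: the log2 difference, TET siRNA minus non-targeting siRNA, ran from -0.08 to 0.55. Its median was 0.16 over the 24 probe sets and 0.02 over all tested probe sets. A positive value was found for 20 of the 24, against 54.4% of all tested probe sets, but probe sets of the same gene are not independent. At the brightest probe set of each gene 7 of 9 were positive, against 51.9% of 12318 tested genes. The median of these 9 was 0.08, against 0.0070 over all tested genes. With the block, 0 of the 9 had an unadjusted limma p under 0.05, against 16.1% of all tested genes. The TET siRNA and non-targeting siRNA arrays did not overlap for 2 of the 24 probe sets, both higher (7.21% of all tested were higher and 5.50% lower in this way). The sign was the same in all 3 clones for 11 higher and 1 lower of the 24, against 20.5% and 15.7% of all tested.

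**Figure D1:**
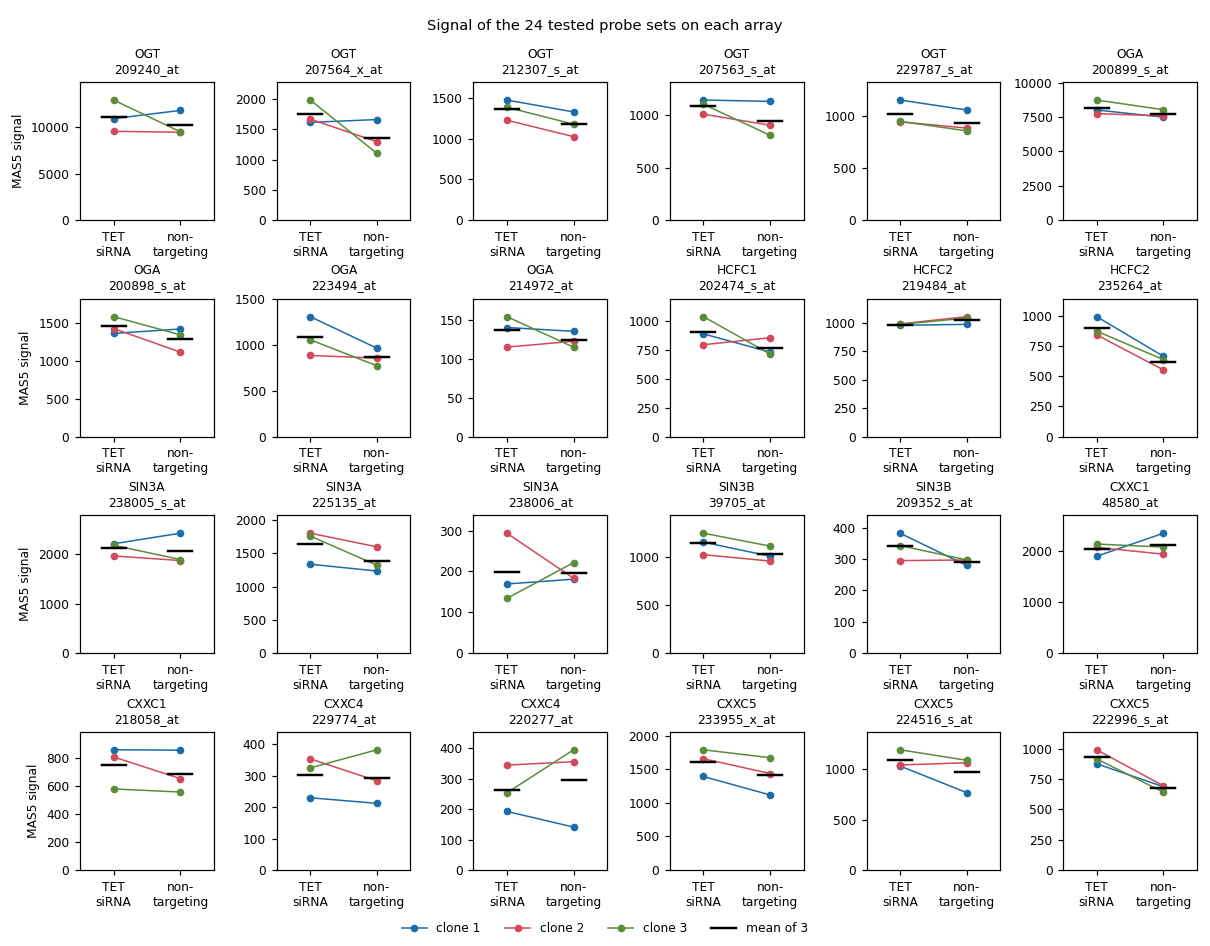
MAS5 signal (linear, from 0) of the 24 tested probe sets, with TET siRNA arrays left and non-targeting siRNA arrays right in each panel; coloured lines join the 2 arrays of a clone and black bars are means of 3 arrays. The groups separate only for HCFC2 at 235264_at and CXXC5 at 222996_s_at.

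The enzymes that add and remove O-GlcNAc had differences above 0 at all 9 of their tested probe sets, and none passed. The brightest OGT probe set, 209240_at, gave signals of 10907, 9545 and 12905 in clones 1, 2 and 3 with TET siRNA, against 11787, 9443 and 9490 with non-targeting siRNA. The groups overlapped, with clone 1 lower, clone 2 nearly level and clone 3 higher under TET siRNA. The log2 difference was 0.12 (SE 0.10, 95% interval -0.11 to 0.34, limma adjusted p = 0.660), an interval of 92.7% to 127% of the non-targeting level, and without replicate 3 it was -0.048. The other 4 tested OGT probe sets differed by 0.12 to 0.39 with adjusted p-values of 0.279 to 0.659.

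The highest of these differences, at OGT 207564_x_at, came from signals of 1614, 1669 and 1984 with TET siRNA against 1661, 1295 and 1104 with non-targeting siRNA. It was -0.04 in clone 1, 0.37 in clone 2 and 0.85 in clone 3, at a probe set whose suffix marks possible cross-hybridisation. Clone 3 had the highest or next highest difference at all 5 tested OGT probe sets.

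OGA, the hydrolase, was brightest at 200899_s_at, with signals of 8006, 7743 and 8729 in TET siRNA cells against 7482, 7571 and 8022 in non-targeting siRNA cells. Each clone was slightly higher under TET siRNA, and the groups overlapped. The difference was 0.08 (SE 0.07, interval -0.06 to 0.23, limma adjusted p = 0.612), the smallest SE of the tested members. At 223494_at the OGA signals were 1310, 886 and 1058 with TET siRNA against 965, 858 and 774 with non-targeting siRNA, and the difference of 0.31 (SE 0.12) did not pass (limma adjusted p = 0.261, and 0.794 without the block). OGA at 200898_s_at and 214972_at differed by 0.18 and 0.13. The only dim probe set of OGT and that of OGA had differences of 0.09 and 0.05, with SEs of 0.74 and 0.55.

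HCFC2, a shorter paralog of HCFC1 without the repeats that OGT cleaves, held the smallest p among the members, at 1 of its 2 probe sets. At 235264_at the signals were 991, 841 and 872 in TET siRNA cells against 664, 551 and 636 in non-targeting siRNA cells. All 3 TET siRNA arrays lay above all 3 non-targeting arrays, and the clones differed by 0.58, 0.61 and 0.45. The mean was 901 ± 79.5 in TET siRNA cells and 617 ± 58.7 in non-targeting siRNA cells (SD, n = 3 each), 1.46-fold, with a log2 difference of 0.55 (SE 0.12, interval 0.29 to 0.81). The limma adjusted p was 0.0573 with the block and 0.454 without it. When only the brightest 30% of probe sets were tested it was 0.0421, and over the other alternatives it was 0.0548 to 1.00.

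The brighter HCFC2 probe set, 219484_at, did not show this difference. Its signals were 978, 991 and 986 in TET siRNA cells against 987, 1055 and 1043 in non-targeting siRNA cells. The difference was -0.06 (SE 0.11, interval -0.29 to 0.17, limma adjusted p = 0.849), with each clone slightly lower, and the intervals of the 2 HCFC2 probe sets do not overlap.

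HCFC1, the adaptor itself, had 1 tested probe set, 202474_s_at, with signals of 887, 793 and 1035 in TET siRNA cells against 730, 854 and 712 in non-targeting siRNA cells. Clones 1 and 3 were higher under TET siRNA and clone 2 was lower, so the groups overlapped. The difference was 0.24 (SE 0.14, interval -0.06 to 0.54, limma adjusted p = 0.470). It was 0.41 without replicate 2 and 0.087 without replicate 3. The other 2 HCFC1 probe sets were dim and disagreed. At 231177_at the signals were 37.8, 52.7 and 52.7 with TET siRNA against 76.5, 99.6 and 96.7 with non-targeting siRNA, all 3 lower. That difference of -0.94 (SE 0.48) did not pass in the fit without a brightness filter (limma adjusted p = 0.602), and at 202473_x_at the difference was 0.56 (SE 0.43).

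The SIN3 scaffolds did not pass at any of 5 tested probe sets. SIN3A at 238005_s_at, its brightest, had signals of 2210, 1965 and 2181 in TET siRNA cells against 2424, 1872 and 1893 in non-targeting siRNA cells, a difference of 0.05 (SE 0.09, interval -0.16 to 0.25, limma adjusted p = 0.871). Clone 1 was lower and the others higher. At 225135_at SIN3A signals were 1336, 1801 and 1758 with TET siRNA against 1234, 1597 and 1321 with non-targeting siRNA, higher in every clone by 0.11, 0.17 and 0.41. The groups overlapped, and the difference of 0.23 (SE 0.10) had a limma adjusted p of 0.311. The third tested SIN3A probe set, 238006_at, differed by -0.05, with values of -0.10, 0.68 and -0.72 in the clones.

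SIN3B, a paralog known for repressing cell cycle genes in quiescent cells, had signals of 1152, 1023 and 1245 in TET siRNA cells against 1007, 956 and 1111 in non-targeting siRNA cells at 39705_at. Every clone was higher, by 0.10 to 0.19, with overlapping groups and a difference of 0.15 (SE 0.10, limma adjusted p = 0.551). Its second tested probe set differed by 0.22 (SE 0.18). The dim SIN3A and SIN3B probe sets differed by 0.77 (SE 0.80) and -0.02 (SE 0.34).

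**Figure D2:**
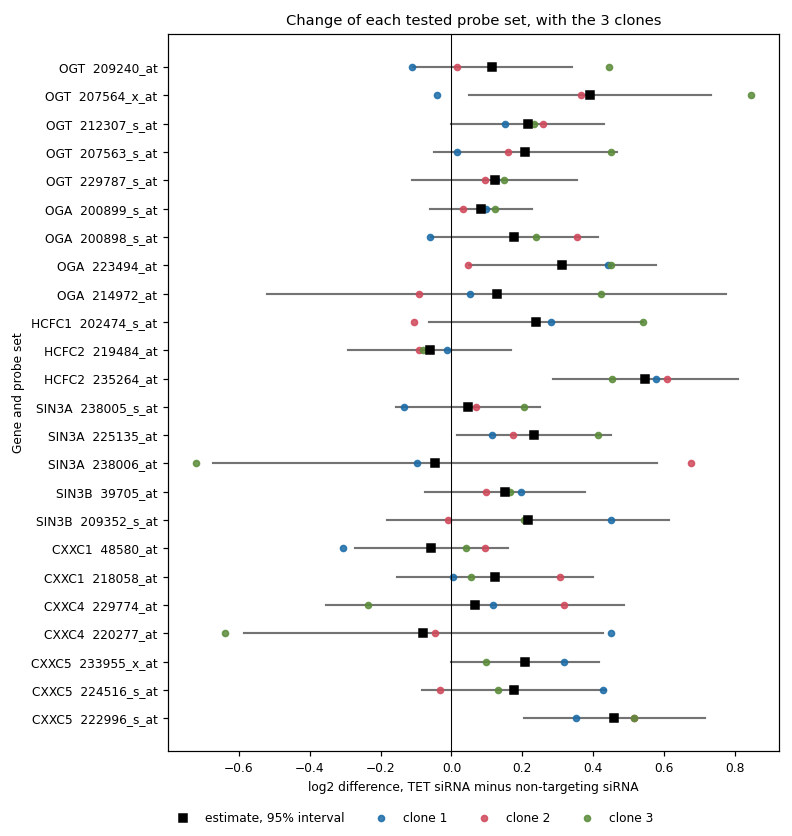
Log2 difference (TET siRNA minus non-targeting siRNA) of the 24 tested probe sets: black squares are limma estimates with the clone as a block, grey lines their unadjusted 95% intervals, and coloured points the 3 clones. HCFC2 at 235264_at and CXXC5 at 222996_s_at stand highest, at 0.55 and 0.46, while HCFC2 at 219484_at lies at -0.06.

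Among the CXXC genes, CXXC5 had the highest difference, at the dimmest of its 3 probe sets, and CXXC1 and CXXC4 lay near 0. CXXC5 at 222996_s_at gave signals of 877, 993 and 918 in TET siRNA cells against 688, 695 and 642 in non-targeting siRNA cells. The groups did not overlap, and the clones differed by 0.35, 0.51 and 0.51. The mean was 929 ± 58.6 in TET siRNA cells and 675 ± 28.5 in non-targeting siRNA cells (SD, n = 3 each), 1.38-fold. The log2 difference of 0.46 (SE 0.12, interval 0.20 to 0.72) did not pass (limma adjusted p = 0.0961, and 0.498 without the block).

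The other CXXC5 probe sets were brighter and also positive, but had smaller values. At 233955_x_at, of the type that can cross-hybridise, signals were 1394, 1659 and 1792 with TET siRNA against 1118, 1438 and 1673 with non-targeting siRNA, a difference of 0.21 (SE 0.10, limma adjusted p = 0.354). Every clone was higher there, and the groups overlapped. At 224516_s_at the difference was 0.18 (SE 0.12), with 0.43 in clone 1, -0.03 in clone 2 and 0.13 in clone 3. Without the non-targeting siRNA array of clone 1, in the fit without the block, the difference was 0.013 at 224516_s_at and 0.050 at 233955_x_at. That fit kept the TET siRNA array of clone 1, a clone with low signals at both probe sets. With both arrays of clone 1 left out and the block kept, the difference was 0.051 at 224516_s_at and 0.15 at 233955_x_at.

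CXXC1, the SET1 subunit, had signals of 1899, 2073 and 2138 in TET siRNA cells against 2350, 1940 and 2078 in non-targeting siRNA cells at 48580_at. Clone 1 was lower and the others slightly higher, for a difference of -0.06 (SE 0.10, interval -0.27 to 0.16, limma adjusted p = 0.851). The other CXXC1 probe set gave 0.12 (SE 0.13).

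CXXC4 is an inhibitor of Wnt signalling that can also lower TET2 protein. At 229774_at its signals were 230, 354 and 325 with TET siRNA against 212, 284 and 383 with non-targeting siRNA, a difference of 0.07 (SE 0.19, interval -0.36 to 0.49). At 220277_at they were 193, 345 and 254 with TET siRNA against 141, 356 and 396 with non-targeting siRNA, a difference of -0.08 (SE 0.23, interval -0.59 to 0.43). The clones took opposite signs at both CXXC4 probe sets: clone 1 was higher and clone 3 lower at each.

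For some members clone 1 also stood apart from the other clones. Averaged over treatments, clone 1 minus the other clones was -0.60 and -1.02 on the log2 scale at the 2 CXXC4 probe sets, -0.39 and -0.30 at 2 of 3 CXXC5 probe sets and -0.32 at SIN3A 225135_at. It was 0.15 to 0.28 at the 5 tested OGT probe sets and 0.42 at CXXC1 218058_at. At OGT 207564_x_at this clone difference of 0.15 was smaller than the treatment difference of 0.39. At every other tested OGT probe set it was larger than the treatment difference, as at 209240_at (0.15 against 0.12) and 229787_s_at (0.28 against 0.12). Across the 6 arrays, the genes whose brightest probe set followed OGT 209240_at most closely were GALNT1, LOC101928728 and ACTR10 (Pearson r of log2 signal 0.99, 0.98 and 0.98). Those for HCFC1 202474_s_at were ZNF107, MAML3 and ZNF175 (0.99, 0.99 and 0.98). These are descriptions over 6 arrays that share clones, chosen as the top 3 of 12309 genes, of which 14 for OGT and 17 for HCFC1 had r over 0.95.

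Related genes were followed in 7 lists: UDP-GlcNAc synthesis, EOGT and hexosaminidases, HCFC1 partners, the SIN3 complex, SET1 and related methyltransferase complexes, other CXXC proteins, and DVL and Wnt proteins. Apart from TET1, TET2 and TET3 they hold 84 genes, of which 76 were tested, with 38 values above 0 and 38 below. Their median was -8.9e-04, against 0.0070 over all tested genes. CREBZF and WDR82 passed with the block, 2.63% of the 76 against 1.32% of all tested genes at their brightest probe set. Neither passed without the block (limma adjusted p = 0.307 for both).

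CREBZF, a bZIP protein that binds HCFC1, was higher and alone in passing among 15 tested HCFC1 partners (6 positive, 9 negative, median -0.06). Its signals at 202979_s_at were 5628, 4424 and 4838 in TET siRNA cells against 3770, 3297 and 3092 in non-targeting siRNA cells, without overlap, for a difference of 0.55 (SE 0.07, limma adjusted p = 0.0058). A second CREBZF probe set, 202978_s_at, also passed (0.55, SE 0.09, adjusted p = 0.0191), and the other 4 tested ones differed by 0.11 to 0.32 and did not pass. Both passing probe sets are of the _s_at type, shared by several transcripts. Those that did not pass include the tested ones without such a suffix, 225594_at (0.32, limma adjusted p = 0.125) and 225595_at (0.26, 0.445). The call at 202979_s_at was lost without replicate 1 (limma adjusted p = 0.0553), without replicate 3 (0.0943), with plain empirical Bayes (0.320) and for the mean of its tested probe sets (0.147).

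WDR82, a subunit that SET1 complexes share, was lower and alone in passing among 14 tested genes of SET1 and related complexes (5 positive, 9 negative, median -0.03). Its signals were 11421, 10801 and 11805 with TET siRNA against 15042, 14871 and 13635 with non-targeting siRNA, without overlap. The difference was -0.36 (SE 0.07, limma adjusted p = 0.0463) at its only probe set here. The call was lost without replicate 1 (limma adjusted p = 0.163), without replicate 3 (0.212), with no brightness filter (0.157), with plain empirical Bayes (0.348) and when gene means were tested (0.0574).

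The lists around the sugar and the deacetylase showed no call. Of 8 tested genes of UDP-GlcNAc synthesis and handling, the pathway that supplies the donor of OGT, 2 had positive and 6 negative values (median -0.09). NAGK, which salvages GlcNAc, had the smallest p, at 0.41 (SE 0.12, limma adjusted p = 0.131), and the acetyltransferase GNPNAT1 was at -0.16. EOGT, which places the same sugar on secreted proteins, differed by 0.17 and the lysosomal NAGLU by 0.06 among 4 genes (median 0.04).

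In the SIN3 complex, 9 of 18 tested genes had positive and 9 negative values (median -0.0026), and none passed. SUDS3, a SIN3 subunit, differed by -0.48 (SE 0.10, limma adjusted p = 0.0566). MNT, a MAX partner that recruits SIN3, differed by -0.41 (limma adjusted p = 0.0647). Both values were negative in 3 of 3 clones.

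Of 9 other proteins with a CXXC finger, the siRNA targets TET1 and TET3 fell and no other passed with the block, and without it TET3 did not pass either (limma adjusted p = 0.0678). Next by p was KDM2A, a CpG-binding histone demethylase, at 0.23 (SE 0.08, limma adjusted p = 0.238). Of 10 DVL and Wnt genes, 8 had positive and 2 negative values (median 0.05) and none passed, with the Wnt effector TCF7L2 at 0.19 (adjusted p = 0.220) and the feedback inhibitor AXIN2 at 0.19 (0.470).

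**Figure D3:**
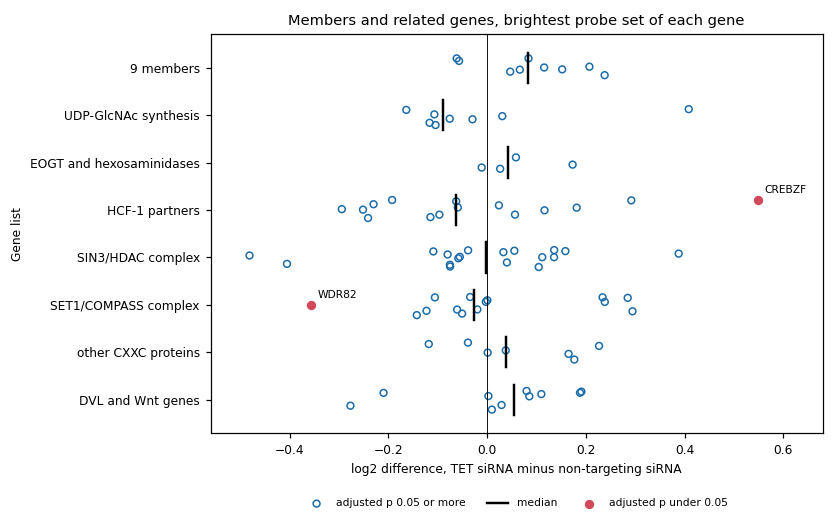
Log2 difference (TET siRNA minus non-targeting siRNA) at the brightest probe set of each tested gene, for the 9 members (top row) and the related lists without TET1 to TET3; each point is a gene, with vertical position in a row random, and black bars are medians. The members lie between -0.06 and 0.24, and only CREBZF and WDR82 are filled as passing.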

How the data were processed

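RNA of 6 samples was biotin-labelled and put on one-colour arrays, per the labels. The authors deposited linear intensities, MAS5 signals per probe set (tool per the submitters' processing notes, its version not given in the sources used here), 1 column per array; the mean without the highest and lowest 2% was 1000 on each. Scanner files were not used here. Signals were taken to log2 without further normalization, and 62 controls were set aside. Ranked by mean log2 signal, the upper 50% of 54613 probe sets (27306; geometric mean signal at least 117) were tested in limma 3.58.1 (R 4.3.3), two-sided, with trended robust empirical Bayes, the clone as a block and Benjamini-Hochberg adjustment over all 27306, at a threshold of 0.05. The steps were tested on simulated data. Values of dim probe sets come from a fit of all 54613. SEs and intervals come from the fit, ± is an SD, and the number of arrays limits precision.

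Genes come from platform annotation, with symbols updated by Entrez ID through RefSeq (GRCh38.p14). Suffix _x_at marks probe sets that can cross-hybridise, while _s_at and _a_at mark ones shared by several transcripts. Named were every member, TET1 to TET3, in each list up to 4 passing genes or else the 2 of smallest p, and the 3 genes most like OGT and HCFC1. Members and lists were chosen with earlier results of these data known, and KDM2A was named after its value was seen. Plots used matplotlib 3.10.9.

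The labels number the clones, which pairs the arrays. Departures from the group mean correlated between arrays of the same clone at 0.493, 0.234 and 0.236 for clones 1, 2 and 3, and at up to 0.219 between different clones. Alternatives were no block, 2 other brightness filters, a pseudocount of 36.1, quantile normalization, plain empirical Bayes, each clone left out, each array left out without the block, gene means, and no probe sets with the 3 suffixes.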

Additional observations from a re-analysis of the deposited data

How the results depend on the processing

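The count of 0 partner probe sets past the threshold held in all alternatives except the test of the brightest 30%, where 1 of 19, HCFC2 at 235264_at, passed. Over all probe sets, limma called 282 with the replicate block, 4 with no replicate block, 70 with no brightness filter, 0 with plain empirical Bayes (3355 at an unadjusted p under 0.05), 143 without probe sets of the 3 suffixes and 99 of 12318 gene means. It called 63 to 684 with 1 clone left out and 2 to 4 with 1 array left out of the fit without the block. Of the 79 tested list genes, TET1 to TET3 included, 5 passed with the block, 1 with no replicate block, 0 with plain empirical Bayes, 3 to 7 without 1 clone and 1 when any array was left out of the fit without the block. Of 376 recomputed member differences, 353 kept their sign and side of the threshold, 1 newly passed and 22 changed sign. With clones or arrays left out, the log2 difference ranged from -0.048 to 0.23 at OGT 209240_at, -0.020 to 0.25 at OGA 214972_at, -0.032 to 0.17 at SIN3A 238005_s_at, -0.41 to 0.29 at SIN3A 238006_at, -0.13 to 0.069 at CXXC1 48580_at, -0.019 to 0.30 at CXXC1 218058_at, -0.15 to 0.28 at CXXC4 229774_at and -0.55 to 0.20 at CXXC4 220277_at. As means of all tested probe sets, HCFC2 had 0.24, CXXC1 0.033 and CXXC4 -0.0063, opposite in sign to their brightest probe set, as each averages 2 probe sets of opposite sign. The 6 dim probe sets each had an interval wider than 1 log2 unit, which limits what they can show.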
